A study of Mus musculus with 13 samples.

Results

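The Schlafen (Slfn) family was followed through injury of the thymic stroma by describing 7 protein-coding genes, Slfn1, Slfn2, Slfn3, Slfn4, Slfn5, Slfn8 and Slfn9, in bulk RNA-seq of CD45- thymic cells. These 7 members were picked from the 11 genes with an Slfn symbol among the 53379 genes of the count table, and they were chosen with results of these same libraries in view, without a stated threshold. Their levels and changes are therefore given as a description, and the adjusted p-values below mark each gene's place in a fit across the whole table without standing as independent evidence. All mice were wild type C57BL/6 animals of 2 months. Steady state comprised 4 libraries of mice given PBS only. A further 3 libraries each were made 1, 4 or 7 days after a sublethal dose of total body irradiation (TBI), which kills most thymocytes and is followed by regrowth. CD45+ hematopoietic cells had been depleted with magnetic beads before sorting, to leave nonhematopoietic stroma such as epithelial cells, fibroblasts, endothelium and mural cells, although transcripts of hematopoietic cells remained, as given below. The table names the steady-state libraries by the day and replicate of their PBS control, and these names are kept here. The study's methods call the bulk libraries biological replicates, and the labels do not tie them to mice, so the p-values measure the spread between these libraries.

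Schlafen genes take their name from the German verb for sleeping, because forced expression of the founding member in T-lineage cells stopped growth. The mouse family is a cluster of related genes that type I interferons induce in many cell types, by way of JAK kinases and STAT and IRF transcription factors. Short members consist of the Schlafen core alone, intermediate ones add a further conserved region, and long ones also carry a helicase-like domain at the C-terminal end. Several members restrict viruses or cut or bind transfer RNA, and Slfn2 is needed for T cells to stay quiescent.

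In the GENCODE annotation of GRCm38, the longest coding length was 1011 bases for Slfn1 and 1134 for Slfn2, the short members. It was 1920 bases for Slfn3 and 1806 for Slfn4, the intermediate members. It was 2652 bases for Slfn5 and 2730 for both Slfn8 and Slfn9, the long members. In the authors' table (GRCm38) all 7 lay on chromosome 11 between bases 82951349 and 83215154, a span of 263.8 kb, in the order Slfn5, Slfn9, Slfn8, Slfn2, Slfn1, Slfn4 and Slfn3. Slfn9 and Slfn8 were on the minus strand and the others on the plus strand.

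Promoters were read for all 7 members from RefSeq (GRCm38.p6) as the 250 bases before the gene's start, because the members moved together at day 1. The core of the interferon-stimulated response element, GAAA followed by any 2 bases and by GAAA again, was searched on both strands. It was present in 3 of 7 members (Slfn5, Slfn8 and Slfn9), in 9 of the 21 interferon-response genes with a promoter in that table, and in 936 of 27025 genes in all (3.46%). TTCNNNGAA, the palindrome of STAT sites, was found in none of the 7 members, in 4 of 21 interferon-response genes and in 8.13% of all genes. A stretch could match both searches. The 3 promoters with this core or its reverse complement, in capitals, are shown 5′ to 3′ on the strand of the gene, followed by that of Slfn4, the member with the steepest rise at day 1, in which neither motif was found. They were at chr11:82951852-82952101 (plus strand) for Slfn5, at chr11:83020811-83021060 (minus strand) for the upstream start of Slfn8, at chr11:82991831-82992080 (minus strand) for Slfn9, and at chr11:83174936-83175185 (plus strand) for Slfn4.
Slfn5: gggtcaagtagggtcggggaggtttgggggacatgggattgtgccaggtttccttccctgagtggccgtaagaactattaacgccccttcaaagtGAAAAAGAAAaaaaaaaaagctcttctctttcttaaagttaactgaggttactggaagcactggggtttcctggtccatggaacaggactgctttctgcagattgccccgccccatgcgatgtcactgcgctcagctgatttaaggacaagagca
Slfn8: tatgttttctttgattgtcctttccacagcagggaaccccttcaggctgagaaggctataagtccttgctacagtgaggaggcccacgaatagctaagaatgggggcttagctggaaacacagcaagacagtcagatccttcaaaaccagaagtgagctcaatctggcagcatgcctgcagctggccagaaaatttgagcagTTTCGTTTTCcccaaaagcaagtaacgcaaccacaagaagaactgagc
Slfn9: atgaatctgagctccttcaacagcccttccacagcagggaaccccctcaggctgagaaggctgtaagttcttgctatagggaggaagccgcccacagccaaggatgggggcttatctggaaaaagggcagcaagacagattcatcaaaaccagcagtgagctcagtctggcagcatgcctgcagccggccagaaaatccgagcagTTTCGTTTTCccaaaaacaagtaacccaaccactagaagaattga
Slfn4: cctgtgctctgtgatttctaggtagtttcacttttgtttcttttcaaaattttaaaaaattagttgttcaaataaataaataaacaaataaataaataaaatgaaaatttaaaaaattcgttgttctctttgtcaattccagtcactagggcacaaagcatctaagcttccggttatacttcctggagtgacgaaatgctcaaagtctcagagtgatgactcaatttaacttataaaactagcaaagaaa
The capitals lay 155 to 146 bases before the start of Slfn5, on the strand of the gene. They lay 48 to 39 bases before the start of Slfn8 and 45 to 36 bases before that of Slfn9, in both on the other strand and with the same letters, TTTCGTTTTC. Starts here are those of RefSeq. For Slfn5 the stretch lies inside the gene of the authors' table, which begins at base 82951349. For Slfn1 the bases after the RefSeq start were not found in its annotated transcript. These are matches of letters and not measured binding.

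Total counts ran from 15721866 to 52056896 per library, and 19984 genes passed the filter on low counts, all 7 members among them. Levels are given as CPM, counts scaled to library size with TMM normalization. Stromal markers were abundant in every library, with 616 to 1282 CPM of Pdgfra (fibroblasts) and 199 to 432 CPM of Pecam1 (endothelium). Transcripts of CD45+ thymocytes were still present, although the sort should remove these cells. The summed level of 14 thymocyte markers was 303 to 1000 CPM at steady state, 140 to 178 at day 1 and 29.4 to 44.8 at day 4. At day 7 it was 262 CPM in replicate 1 but 6250 and 2666 CPM in replicates 2 and 3, which stand apart for this reason. Results at day 7 are therefore also given without those 2 libraries. In such sorted bulk samples, fewer cells of a type and less RNA per cell cannot be told apart.

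Day 1 against steady state shows the early response to irradiation. All 7 members had every day 1 library above every steady-state library, a pattern found in 7.25% of all genes tested. In the edgeR fit 4 of 7 passed the adjusted p of 0.05, Slfn2, Slfn4, Slfn8 and Slfn9, and all 4 were higher at day 1, where 1.68% of all genes were called higher. The median log2 fold change was 2.05 over the 7 members and -0.10 over all genes tested. Nothing is read from these shares, since the choice of members was not independent of this contrast. The plot of the 7 genes by library shows the peak at day 1 and the lower levels at day 4.

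**Figure D1:**
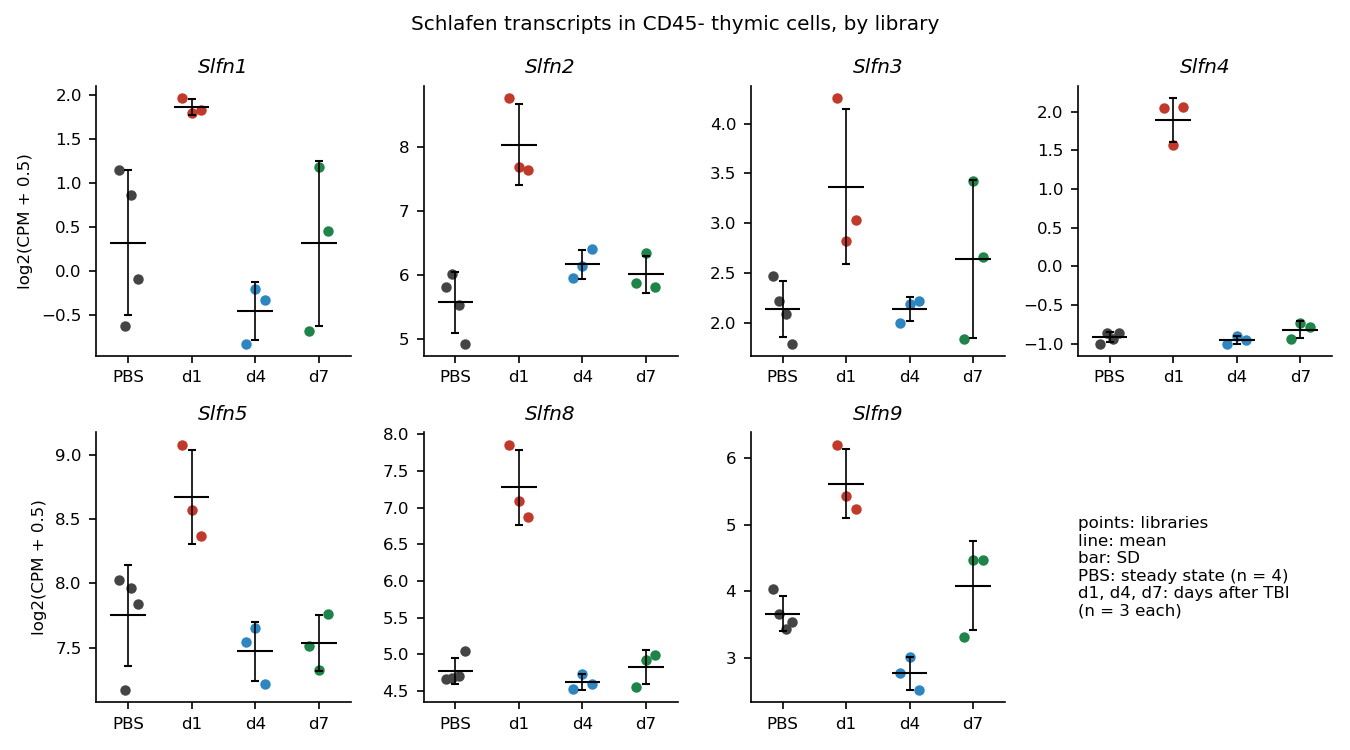
Level of each Schlafen gene, as log2(CPM + 0.5), in the 4 steady-state libraries (PBS) and in 3 libraries at each day after TBI (d1, d4, d7), with 1 point per library, a line at the mean and a bar for the SD. In all 7 panels the day 1 points lie above every steady-state point, and in Slfn1, Slfn3 and Slfn9 the day 7 points are spread more widely than those of day 4.

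Of the short members, Slfn2, the quiescence factor of T cells and myeloid cells, was the most abundant Schlafen transcript per length at day 1. Its level at steady state was 55.5 CPM in PBS day 1 replicate 2, 64.0 in PBS day 4 replicate 2, 45.6 in PBS day 7 replicate 1 and 29.8 in PBS day 7 replicate 2. At day 1 it was 435, 207 and 200 CPM in replicates 1 to 3. The groups did not overlap, replicate 1 stood highest, and the log2 fold change was 2.53 ± 0.32 (SE; adjusted p = 0.00080), or 5.76-fold. Without day 1 replicate 1 it was 2.06, still past the threshold. Levels then lay at 61.3, 70.1 and 84.2 CPM at day 4 and at 57.9, 80.9 and 55.9 CPM at day 7, which overlapped with steady state.

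Slfn1, the founding member, was scarce. Steady-state libraries held 1.71, 0.150, 1.31 and 0.436 CPM in the order above, and day 1 libraries held 3.39, 2.97 and 3.04 CPM. Day 1 was tight and above steady state, but steady state itself was spread, and the log2 fold change of 1.77 ± 0.79 did not pass the threshold (adjusted p = 0.28). The 2 higher steady-state values were in the libraries with the most thymocyte markers, 794 and 1000 CPM against 303 and 345. Those 2 libraries also held the most macrophage markers, 183 and 129 CPM against 68.0 and 84.9. Their neutrophil and monocyte markers were highest as well, at 122 and 204 CPM against 49.7 and 56.2. The part of thymocytes or of myeloid cells in this spread was not tested. With only the other 2 steady-state libraries, a setting chosen after seeing the data, the log2 fold change was 3.53 (adjusted p = 0.080).

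Of the intermediate members, Slfn4, known as an interferon-induced gene of monocytes and macrophages, was nearly absent except at day 1. Its raw counts at steady state were 0, 2, 1 and 1, all under the detection floor of 3 counts per library. At day 1 they were 128, 53 and 176, or 3.62, 2.46 and 3.69 CPM. Per normalized library size the 357 counts of day 1 were 130 times the 4 counts of steady state (95% exact interval of 50.4 to 481, for counting error only). The gene passed the test (adjusted p = 0.00014). Counts returned to 0, 2 and 1 at day 4 and to 1, 5 and 3 at day 7, so that day 1 was 144 times day 4 (interval of 48.8 to 701) and 51.0 times day 7 (26.5 to 112). No fold is given between the other conditions, which lay at or near the floor.

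Because Slfn4 is a gene of myeloid cells, their markers are given beside it. Of 10 neutrophil and monocyte markers, 2 were higher at day 1 than at steady state: Csf3r, the receptor for granulocyte colony-stimulating factor, at 4.41 to 5.91 CPM against 0.0484 to 0.285 (log2 fold change of 5.30 ± 0.66), and Ly6c2 at 17.3 to 26.9 CPM against 3.24 to 8.73 (1.79 ± 0.40). Of all genes tested 1.68% were called higher, and the other 8 listed markers did not pass. Of these, Retnlg was above steady state in every day 1 library (mean of 1.12 CPM against 0.149, adjusted p = 0.16) and S100a9 had a log2 fold change of 1.72 ± 0.67 (adjusted p = 0.21) with ranges that overlapped. Ly6g and Camp, which define neutrophils, were at 1.02 to 3.68 and 0.557 to 2.18 CPM at day 1 and overlapped with steady state too. In all, 3 of 10 had every day 1 library above every steady-state library, a pattern found in 7.25% of all genes tested. Log2 fold changes over the 10 ran from -1.45 in Ccr2 to 5.30 in Csf3r, with a median of 1.02. The summed level of the list was 162 to 285 CPM at day 1 and 49.7 to 204 CPM at steady state, most of it from Ltf. Of 10 macrophage markers, Fcgr1 alone was higher at day 1, at 0.607 to 1.16 CPM against 0 to 0.132, and the list summed to 83.8 to 137 CPM against 68.0 to 183 CPM. Cd68 did not pass but had no overlap, with a mean of 9.16 CPM at day 1 and 3.86 CPM at steady state (adjusted p = 0.11), so that 2 of 10 were above every steady-state library. Outside the lists, Fcer1g, a receptor subunit of myeloid cells, was at 4.64 to 8.99 CPM at day 1 against 0.775 to 3.27 CPM. It was also the gene most like Slfn1 over the 13 libraries, so its high day 1 level is not independent of the Schlafen course. Tyrobp, also outside the lists, was at 3.20 to 5.26 CPM against 1.28 to 3.33 CPM, and these ranges overlapped. None of the 20 listed genes was at 0 in all libraries of a condition. The part of myeloid cells in the day 1 level of Slfn4 was not tested.

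Slfn3, studied mainly in T cells and gut epithelium, was at 5.02, 4.15, 3.74 and 2.95 CPM at steady state and at 18.6, 6.55 and 7.67 CPM at day 1. The log2 fold change of 1.46 ± 0.43 did not pass (adjusted p = 0.10), and it rested in part on replicate 1, without which it was 0.84. Day 4 lay at 3.48, 4.06 and 4.15 CPM, within the range of steady state.

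Of the long members, Slfn8 was at 24.7, 25.2, 25.6 and 32.4 CPM at steady state and at 232, 136 and 117 CPM at day 1, a log2 fold change of 2.58 ± 0.24 (adjusted p = 0.00011), or 6.00-fold. Days 4 and 7 were back at 22.6 to 26.2 and 23.1 to 31.2 CPM, each overlapping with steady state. Slfn9, its close relative and neighbor, was at 15.9, 12.1, 10.2 and 11.1 CPM at steady state and at 73.3, 42.5 and 37.1 CPM at day 1, which gave 2.05 ± 0.33 (adjusted p = 0.0044), or 4.13-fold. Slfn5, a nuclear member and by its mean the most abundant at steady state, was at 261, 143, 249 and 229 CPM and then at 541, 381 and 330 CPM at day 1. Its log2 fold change was 0.92 ± 0.25 and missed the threshold (adjusted p = 0.079), although every day 1 library was above every steady-state library. DESeq2 called Slfn3 and Slfn5 higher as well (adjusted p = 0.016 and 0.0076), for 6 of 7 in all. The share of all genes that DESeq2 called is not given here, so its counts cannot be set against the shares of the edgeR fit.

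Some transcripts of the cluster resemble each other, and featureCounts by default leaves out reads that map to several places. Of all stretches of 50 bases in the annotated transcripts, 14.6% in Slfn8, 11.2% in Slfn9, 8.15% in Slfn4, 7.39% in Slfn3, 4.27% in Slfn2 and 0.61% in Slfn1 occurred in another Slfn gene, and none did in Slfn5. For stretches of 100 bases the share was 3.38% in Slfn8, 3.71% in Slfn9, 0.13% in Slfn2, 0.05% in Slfn4 and 0 in the other 3. The read length is not given in the sources used here, so the share that applies is not known, and values of Slfn8 and Slfn9 are the most uncertain. Slfn5 shares 559 exonic bases, 8.84% of its length, with the antisense gene Slfn5os, which held at most 13 counts in any library.

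The other 4 genes with an Slfn symbol are given by their range. The pseudogene Slfn10-ps was at 3.73 to 7.79 CPM at steady state, 7.75 to 12.6 at day 1, 2.45 to 3.21 at day 4 and 3.47 to 11.2 at day 7, with 0.77 ± 0.37 for day 1 against steady state (adjusted p = 0.31). Slfn14, a long member known from red cell and platelet development, was at 0.175 to 1.25 CPM at steady state and 0.0929 to 0.198 CPM at day 1 (-2.43 ± 0.74, adjusted p = 0.12). It had 11 to 78 counts at day 7 against 1 to 3 counts at day 4 and passed the test between these days (adjusted p = 0.030). Slfnl1 and Slfn5os failed the filter, with at most 6 and 13 counts per library.

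Levels of different genes are compared per kb of exonic length. At steady state Slfn5 (34.9 ± 8.4 CPM per kb, SD, n = 4) and Slfn2 (29.3 ± 8.8) led and their ranges overlapped, followed without overlap by Slfn8 (6.59 ± 0.89) and then Slfn9 (2.07 ± 0.42). Slfn3 (1.16 ± 0.25) and Slfn1 (0.484 ± 0.39) overlapped, and Slfn4 came last. At day 1 Slfn2 led alone (169 ± 80, n = 3), ahead of Slfn5 (66.0 ± 17) and Slfn8 (39.5 ± 15), whose ranges overlapped. Slfn9 (8.55 ± 3.3), Slfn3 (3.21 ± 2.0), Slfn1 (1.68 ± 0.12) and Slfn4 (0.821 ± 0.17) followed, each below the range of the gene before it. Slfn2 remained first at day 4 (43.2 ± 6.9) and day 7 (39.0 ± 8.4), where it overlapped with Slfn5 only at day 7.

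**Figure D2:**
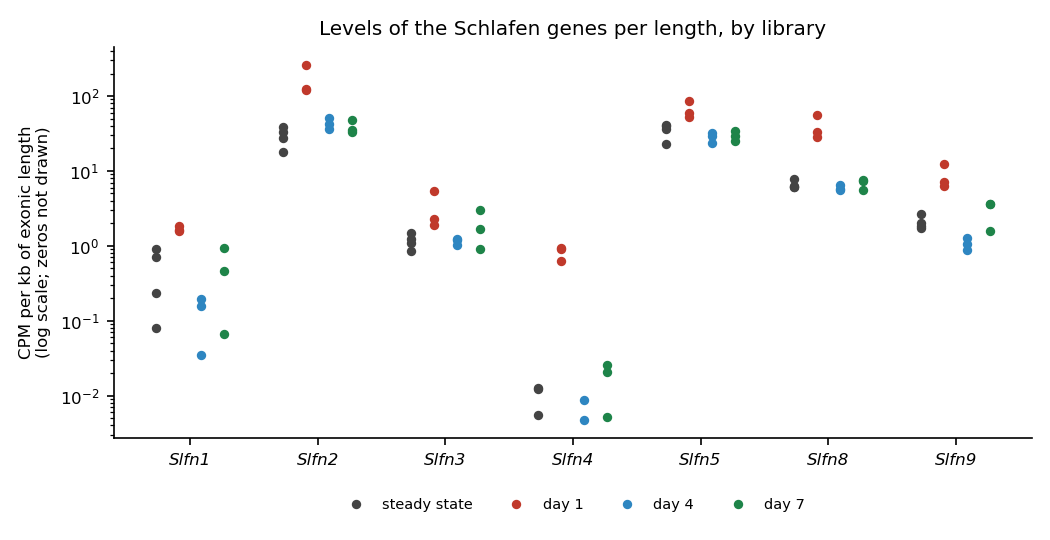
Level of each Schlafen gene in CPM per kb of exonic length on a log axis, with 1 point per library and colors for steady state (n = 4) and each day after TBI (n = 3 each). Values of 0 are not drawn. Slfn2 and Slfn5 have the highest means in every condition, Slfn2 reaches a mean of 169 CPM per kb at day 1, and Slfn4 is above 0.1 CPM per kb at day 1 alone.

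The makeup of the family's transcripts also differed. Slfn5 made up 32.1 to 55.7% of the summed per-length level of the 7 genes in steady-state libraries and 20.2 to 26.3% at day 1. Slfn2 made up 27.6 to 54.5% and then 54.2 to 61.7%, ranges that just overlapped. Slfn8 went from 7.05 to 12.2% to 13.3 to 14.5%, without overlap.

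Days 4 and 7 were compared with day 1 to follow the end of the response. These comparisons share the day 1 libraries with the one above, so a high day 1 library enters each of them. At day 4, 5 of 7 members were lower than at day 1, where 1.07% of all genes were called lower: Slfn2, Slfn4, Slfn5, Slfn8 and Slfn9. Of the members called other than Slfn4, Slfn9 had the largest difference. It fell from 37.1 to 73.3 CPM to 6.32, 7.53 and 5.20 CPM, a log2 fold change of -3.00 ± 0.38 (adjusted p = 0.0013). Slfn8 fell by 2.74 ± 0.27 on the log2 scale (adjusted p = 0.00031) and Slfn2 by 1.97 ± 0.35 (adjusted p = 0.013). Slfn5 passed narrowly, at -1.23 ± 0.27 (adjusted p = 0.044), with day 4 at 186, 201 and 148 CPM. Its call held in 5 of 19 alternatives, and that of Slfn2 in 14 of 19. Leaving out any 1 of the day 4 libraries ended the calls of both (adjusted p of 0.060 to 0.089 for Slfn2 and 0.14 to 0.26 for Slfn5). The call of Slfn5 also ended without any 1 of the day 7 libraries, of day 1 replicates 1 and 2 or of the PBS libraries other than PBS day 4 replicate 2 (0.058 to 0.12). Slfn1 (0.0645, 0.369 and 0.296 CPM at day 4) and Slfn3 did not pass, with log2 fold changes of -3.54 ± 0.95 and -1.49 ± 0.47 (adjusted p = 0.10 and 0.17). DESeq2 called all 7 lower, again without its share over all genes.

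At day 7 the same 5 of 7 were lower than at day 1, and 4.45% of all genes were called lower. The log2 fold change was -2.53 ± 0.27 for Slfn8 (adjusted p = 0.00040), -2.11 ± 0.35 for Slfn2 (0.0057), -1.54 ± 0.36 for Slfn9 (0.021) and -1.16 ± 0.27 for Slfn5 (0.022). Slfn5 was at 182, 160 and 217 CPM at day 7. Slfn4 passed with an adjusted p of 0.00081, while Slfn1 and Slfn3 did not (0.24 and 0.33). Without day 1 replicate 1, Slfn9 and Slfn5 no longer passed (adjusted p = 0.084 and 0.080), and Slfn5 did not pass without day 7 replicate 2 either (0.088). With day 7 replicate 1 alone, the day 7 library low in thymocyte markers, none of the 7 passed. Their directions held in that setting and Slfn9 fell by 2.38 (adjusted p = 0.12), but a lone library has to be assumed to vary like those of the other groups.

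**Figure D3:**
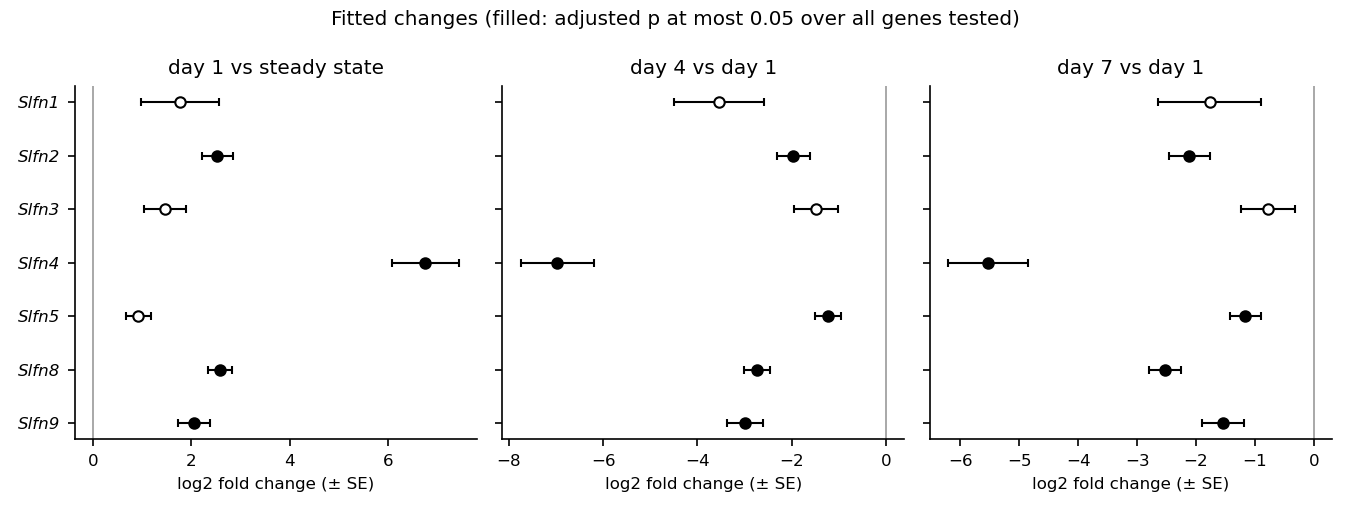
Fitted log2 fold change with its SE for each Schlafen gene at day 1 against steady state, day 4 against day 1 and day 7 against day 1, with filled points where the adjusted p over all genes tested was 0.05 or less. All 7 points lie above 0 in the first panel and below 0 in the other panels, and Slfn4 lies farthest out, where its fitted value depends on the handling of counts near 0.

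Against steady state, none of the 7 members passed at day 4 (0.29% of all genes called in either direction) or at day 7 (0.005%). At an unadjusted p under 0.05 the edgeR fit had 1 of 7 at day 4 and 0 of 7 at day 7. Over all 19984 genes tested it had 2602 at day 4 and 2691 at day 7. DESeq2 called 0 of 7 at both days. Over the 6 members other than Slfn4 the median log2 fold change was -0.23 at day 4 and 0.23 at day 7, against -0.13 and 0.00 over all genes. The 1 member with an unadjusted p under 0.05 was Slfn9, which at day 4 lay below all steady-state libraries, at 6.35 ± 1.2 CPM (SD, n = 3) against 12.3 ± 2.5 (n = 4), a log2 fold change of -0.96 ± 0.34 (adjusted p = 0.28). Slfn1 had the largest log2 fold change of the 7 at day 4, -1.77 ± 0.88 (adjusted p = 0.41), with ranges that overlapped. Slfn2 was at 71.8 ± 12 CPM at day 4 against 48.8 ± 15 at steady state, a log2 fold change of 0.56 ± 0.32 (adjusted p = 0.45), and at 64.9 ± 14 CPM at day 7 (0.41 ± 0.32, adjusted p = 0.69).

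Day 7 against day 4 covers the start of regrowth. Slfn9 was higher at day 7, the 1 of 7 members called, where 2.77% of all genes were called higher. It was at 9.39, 21.8 and 21.6 CPM at day 7 against 5.20 to 7.53 CPM at day 4, and its log2 fold change was 1.47 ± 0.36 (adjusted p = 0.040). Its 2 high values were in the libraries rich in thymocyte markers, and with day 7 replicate 1 alone the log2 fold change was 0.55 (adjusted p = 0.96). The call also ended when any 1 of 9 libraries was left out, with adjusted p-values of 0.051 to 0.18: all 3 of day 4, replicates 2 and 3 of day 7, replicates 2 and 3 of day 1, and both PBS day 7 libraries. Against steady state, the log2 fold change of Slfn9 at day 7 was 0.51 ± 0.33 (adjusted p = 0.59), and -0.35 with day 7 replicate 1 alone.

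Slfn1 and Slfn3 had the same order of libraries at day 7. Slfn1 was at 0.123 CPM in replicate 1, 1.76 in replicate 2 and 0.868 in replicate 3, and Slfn3 at 3.06, 10.2 and 5.80 CPM, in the order of the thymocyte markers. Macrophage markers, summed to 56.8, 184 and 118 CPM, had this order too, so the 2 libraries high in Slfn9 also led in these. Neutrophil and monocyte markers did not, at 63.4, 74.8 and 52.2 CPM. All 14 thymocyte markers were higher at day 7 than at day 4. Slfn8 varied less, at 23.1, 29.9 and 31.2 CPM, and Slfn5 and Slfn2 did not follow this order. The part of thymocytes or of macrophages in the day 7 levels was not tested. At day 1, when each member had its highest mean, the thymocyte markers summed to less than in any steady-state library. While 0 of 14 passed the test against steady state, all had negative log2 fold changes, of -2.82 to -1.44. The median was -2.02, against -0.10 over all genes tested.

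**Figure D4:**
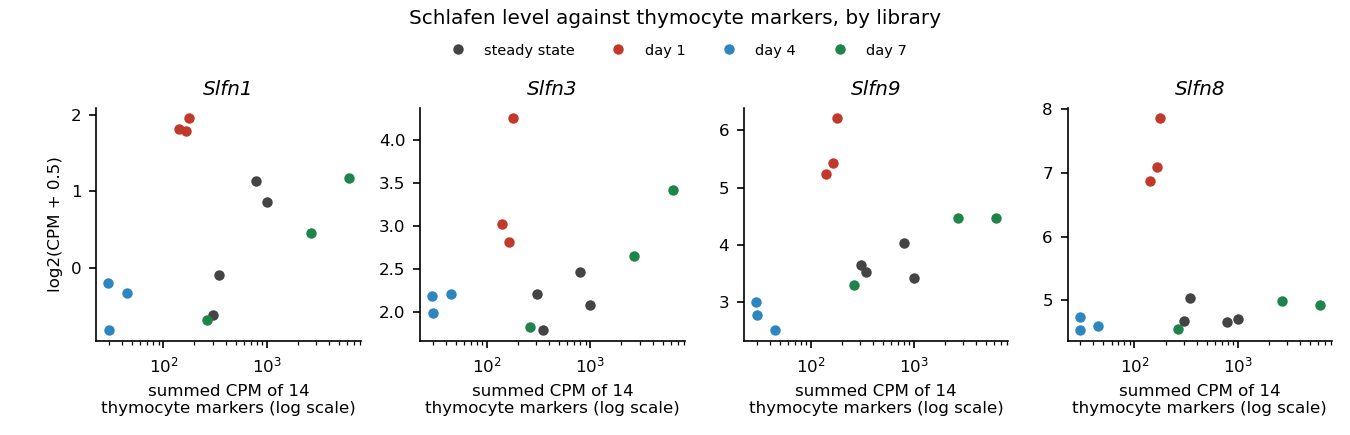
Level of Slfn1, Slfn3, Slfn9 and Slfn8, as log2(CPM + 0.5), against the summed CPM of 14 thymocyte markers on a log axis, with 1 point per library colored by condition. The day 1 libraries, at 140 to 178 CPM of thymocyte markers, lie above all others for Slfn1, Slfn9 and Slfn8, while for Slfn3 the day 7 library at 6250 CPM is also high, and among the day 7 libraries the library at 262 CPM is the lowest in each panel.

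Genes of the interferon response, the pathway known to induce Schlafen genes, were followed in the same libraries. The list was chosen with earlier results of these data known, so its counts are a description. Of 30 interferon-response genes, 29 were higher at day 1 than at steady state and 0 were lower. Over all genes tested, 1.68% were called higher. The median log2 fold change was 2.61 over the list and -0.10 over all genes tested. The summed level was 9541 to 19114 CPM against 1920 to 2413 CPM. The largest changes were in Ifit3, of the antiviral IFIT proteins (4.67 ± 0.31), its paralog Ifit3b (4.56 ± 0.32) and the antiviral GTPase Mx1 (4.49 ± 0.58). Isg20, an exonuclease, was the 1 gene that did not pass (-0.57 ± 0.32, adjusted p = 0.38). None of the 30 passed at day 4 or day 7 against steady state in the edgeR fit, and the list summed to 2271 to 2321 CPM and 1674 to 1887 CPM. Compared with day 1, 27 of 30 were lower at day 4 and 29 of 30 at day 7, where 1.07% and 4.45% of all genes were called lower. Ifit3 and Ifit3b are near-identical in part, so their separate values are uncertain.

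Interferon genes themselves gave few reads. Ifnb1 had 0 to 7 counts and Ifng 0 to 17 counts per library, and both failed the filter. At day 1 Ifnb1 had 1 count in each library and Ifng 0.139 to 0.481 CPM, against 0 to 0.194 CPM at steady state. None of the 6 tested receptor and kinase genes (Ifnar1, Ifnar2, Ifngr1, Ifngr2, Jak1 and Tyk2) passed in any comparison with steady state, with a median log2 fold change of -0.26 at day 1. Other interferons were not examined.

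The genes most like each member were found by Pearson's r of log2(CPM + 0.5) over the 13 libraries, which share the day 1 peak, so a high r describes that shared course. Slfn8 was closest to Ifit2 (0.989), Isg15 (0.988) and Herc6 (0.986), and Slfn2 to Ifi47 (0.977), Naa25 (0.973) and Psmd11 (0.969). Slfn9 was closest to Dcp2 (0.940), Gbp7 (0.939) and Eif2ak2 (0.933), and Slfn5 to Parp14 (0.945), Eif2ak2 (0.931) and Pax5 (0.928). Slfn4 was closest to Csf3r (0.985), Isg15 (0.982) and Il19 (0.979). Slfn1 was closest to Fcer1g (0.969), then to Ifi209 (0.950) and Ccl12 (0.939), and Slfn3 to Gm15753 (0.964), Psmc4 (0.959) and Klhdc4 (0.948). Among the members themselves r ran from 0.621 for Slfn3 with Slfn5 to 0.978 for Slfn4 with Slfn8.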

How the data were processed

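Per the submitters' processing notes, the authors used Trimmomatic 0.38 for trimming, STAR 2.7.0e for alignment (GRCm38.p5) and featureCounts 1.6.3 for counting at default settings, which use neither strand nor multiply mapped reads. The deposited values are raw counts per gene. No column of sample values was left out. The deposited exonic length gave CPM per kb. Symbols came from GENCODE M21 and promoters from RefSeq.

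All 13 libraries entered 1 fit by condition in edgeR 4.0.16 (R 4.3.3), with TMM, filterByExpr() and the two-sided quasi-likelihood F-test. A gene was called at a Benjamini-Hochberg adjusted p of 0.05 or less over all genes tested. SEs were computed as the log2 fold change over the square root of F. The interval of the Slfn4 ratio is an exact binomial interval and covers counting error only. Self-tests on simulated counts were run first. Steady-state libraries were used as a group, because their column names carry no label replicate. The alternatives were DESeq2 1.42.0, RLE normalization, no filter, the family of the tag that closes each column name (tag family, whose meaning the sources do not give) as a covariate, only the conditions compared, a replicate block, and each library left out.

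The members and lists were chosen with earlier results of these data known. The text names every Slfn gene, the 3 genes most like each member, and the 3 interferon-response genes called with the largest change in each comparison with steady state. Isg20, Csf3r, Ly6c2, Fcgr1, Ly6g, Camp, Ltf, Retnlg, S100a9, Cd68, Ccr2, Fcer1g, Tyrobp, Pdgfra, Pdgfrb, Pecam1 and Epcam were named after their values were seen. Marker lists covered 9 cell types.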

Additional observations from a re-analysis of the deposited data

Results flagged for a closer look

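Slfn8 at steady state had 1 library far from the others, PBS day 7 replicate 2, at 32.4 CPM against 24.7 to 25.6 CPM in the other 3. The gap to its nearest neighbor was 0.887 of the whole range, above Dixon's 95% limit for 4 samples. This was 1 of 7 genes examined in this way, and chance flags about 1 in 20. That library also had the lowest level of Slfn2 at steady state, 29.8 CPM, and the smallest total count of the 4. Without it, Slfn8 still passed at day 1.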

How the results depend on the processing

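At day 1 against steady state, 4 members were called in every alternative except DESeq2, which called 6, and 26 to 29 of the 30 interferon-response genes were called. No member was called at day 4 or day 7 against steady state in any alternative.

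At day 4 against day 1 the replicate block called 2 members (Slfn4 and Slfn8) instead of 5, and at day 7 against day 1 it called 3. It called 0 at day 7 against day 4. Deviations of same-numbered libraries after TBI correlated at -0.666 to 0.196. The mean was -0.179, against 0.079 for libraries of other numbers. These correlations run over all genes and also carry the cell makeup of each library. They cannot decide whether the replicate numbers pair the libraries. No paired analysis was possible for steady state because its columns carry no label replicate number. At day 7 against day 1, tag family as a covariate and the fit of only the conditions compared each called 3. At day 7 against day 4 both called 0. Leaving out each library in turn gave 3 to 5 calls at day 4 against day 1, 3 to 5 at day 7 against day 1 and 0 to 1 at day 7 against day 4. With day 7 replicate 1 as the only day 7 library, a setting chosen after seeing the data, 0 members were called against day 1 and 0 against day 4, and Slfn9 at day 7 against steady state turned to -0.35. Of the interferon-response genes, DESeq2 called 3 and the unfiltered fit 2 at day 4 against steady state, DESeq2 called 1 at day 7, and leaving out each library gave 0 to 1 at day 4. The causes were not tested.

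Of 504 alternative values of member fold changes, 450 kept their direction and call, 47 lost the call, 6 gained it and 1 turned direction. The other marker lists gave few calls at day 1 against steady state. These were 1 of 3 for fibroblasts (Pdgfrb, higher) and 0 for dendritic cells, NK cells, B cells, thymic epithelium and endothelium. With 3 or 4 libraries a condition, and with single-digit counts for Slfn4 outside day 1, small differences were not detectable at this depth.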
